A study of Mus musculus with 6 samples.

Results

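The genes described here are 51 regulators of cell division, chosen by name from the 53023 genes of the expression table, by a rule that uses no measured value, although earlier results of these data were known when the list was drawn up. They are 10 cyclins, 5 cyclin-dependent kinases (CDKs), 6 CDC25 phosphatases and WEE/MYT kinases that switch CDK1 on and off, 5 polo-like and Aurora kinases, 3 chromosomal passenger proteins, 5 spindle checkpoint genes, 12 subunits and 3 regulators of the anaphase-promoting complex (APC/C), and separase with securin. Each of the 51 names matched exactly 1 gene of the table.

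RNA was measured in mouse two-cell embryos of the ICR strain at 28 h post insemination (hpi) in 3 groups, with 2 libraries per group and a pool of 5 embryos per library. PIASy-WT embryos had received 100 ng/µl of mRNA for HA-tagged PIASy, an E3 ligase for the small protein SUMO, in the cytoplasm between 1.5 and 3 hpi. PIASy-Mut embryos had received the same dose of mRNA for PIASy with the C335F exchange in its RING finger, a mutant of the SUMO ligase. Non-injection embryos received no mRNA. Injected zygotes were kept if they fluoresced at 9 hpi, so PIASy-Mut shares injection and selection with PIASy-WT while non-injection shares neither, and injection alone cannot be told apart from mutant PIASy in the comparison of those 2 groups. All embryos were cultured in KSOM medium and had their zona pellucida removed before lysis. The labels do not say whether the 2 pools of a group came from separate fertilizations, so P-values measure only the spread between these libraries.

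CDK1 bound to a B-type or A-type cyclin drives a cell into mitosis. WEE kinases hold the complex inactive by phosphorylating CDK1, and CDC25 phosphatases remove that block. Polo-like and Aurora kinases build the spindle and, with the passenger proteins survivin, borealin and INCENP, correct faulty attachments of chromosomes. The spindle checkpoint keeps CDC20 from switching on the APC/C until all chromosomes are attached. The APC/C then marks securin and cyclin B for destruction, separase cuts cohesin, and the chromatids part. An oocyte stores many of these mRNAs for meiosis, and the mouse embryo degrades stored mRNAs and begins its own transcription by the two-cell stage.

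The injected gene separates the injected from the non-injection libraries, but wild-type and mutant mRNA both count as Pias4, so it does not check the PIASy-WT and PIASy-Mut labels. FPKM (fragments on a gene, scaled to the length of the gene and the depth of the library) of Pias4, which encodes PIASy, was 610 and 579 in PIASy-WT and 862 and 611 in PIASy-Mut, beside 2.98 and 3.59 without injection. The libraries held between 871663 and 1363928 fragments on genes. Mitochondrially encoded genes took 1.28% of the fragments in PIASy-Mut 1 and between 5.82% and 8.14% in each of the other 5 libraries, so PIASy-Mut 1 stood apart. All 15 oocyte and two-cell embryo markers were above 0 in every library, with a summed FPKM between 3432 and 5553. Among them Bmp15 lay above all controls in PIASy-WT, Zp3, Padi6 and Zfp352 lay below them, and the rest overlapped. Of 15 cumulus and granulosa cell markers, between 6 and 9 were above 0, with a summed FPKM of 20.05 to 26.6 in the 4 controls and 11.3 to 11.5 in PIASy-WT. Amh, Foxl2, Inha and Inhba were at 0 in all 6 libraries, Fshr and Lhcgr in all but PIASy-Mut 2, and Amhr2, Cyp19a1, Gja1, Nr5a2 and Tnfaip6 were above 0 in all 6. Nr5a2, Amhr2 and Gja1 lay below all controls in PIASy-WT, and Ptgs2 and Vim lay above them. Levels are shares of each library, so fewer blastomeres that express a gene and less of its RNA per blastomere cannot be told apart.

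Cdk1, the kinase of mitosis, the APC/C inhibitor Fbxo5, the APC/C subunit Anapc7, the cyclin Ccne1 and the Aurora kinase Aurkc fell by limma in PIASy-WT two-cell embryos against both controls. The FPKM of Cdk1 in PIASy-WT was 0.20 of that in non-injection and that of Anapc7 0.091. The mitotic cyclins Ccnb1 and Ccna2 were not called by limma, and the CDK1 inhibitor Wee2, the centriole kinase Plk4, survivin (Birc5) and the checkpoint gene Mad2l1 had their highest values in PIASy-WT, also without a call by limma. Of the 51 genes, 49 reached an FPKM of 1 in at least 2 libraries and were tested, and Ccnd2 and Cdk6 were not. By limma on log2(FPKM + 1), at an adjusted P of 0.05 or less and a log2 difference of 1 or more in size, 5 of 49 (10.2%) were lower in PIASy-WT and 0 higher against non-injection, where 5.76% of all 16100 genes tested were lower and 1.03% higher. Against PIASy-Mut, 6 of 49 (12.2%) were lower and 0 higher, with 6.01% of all genes lower and 0.82% higher. At an unadjusted P under 0.05, 18 members were lower and 4 higher against non-injection (17.6% and 10.6% of all genes), and 19 were lower and 4 higher against PIASy-Mut (18.2% and 9.46%). The PIASy-WT libraries are shared by both comparisons, so their counts are not independent.

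The median log2 difference of the 49 genes from non-injection was -0.57 and that from PIASy-Mut -0.51, beside 0.01 and -0.03 over all genes tested. Both PIASy-WT libraries lay below all 4 others for 25 of the 49 (24.4% of all genes did so) and above all 4 for 7 (14.3%, beside 19.9%). These genes were abundant, with a median of 15.6 over the members' mean FPKM beside 3.82 over all genes tested. A second method, limma-voom on the whole fragments recovered from the FPKM, tested 46 of the genes and called 16 lower and 2 higher against non-injection, where it called 18.3% of 10193 genes lower and 7.36% higher. Against PIASy-Mut it called 18 lower and 2 higher (18.2% and 5.11% of all genes). Below, a gene said to be called or to pass without a named method was judged by limma, and calls by voom are given as such. The limma counts depended on single libraries. Without either non-injection library or either PIASy-WT library 0 of the 49 genes were called lower against non-injection, as were 0 of all 16100, while 11 were called without PIASy-Mut 1 and 12 without PIASy-Mut 2 (9.4% and 9.73% of all genes). Against PIASy-Mut, 17 were called lower and 1 higher without PIASy-Mut 2 (10.9% and 5.22% of all genes), and 0 members and 0 of all genes without any of the other 5 libraries.

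**Figure D1:**
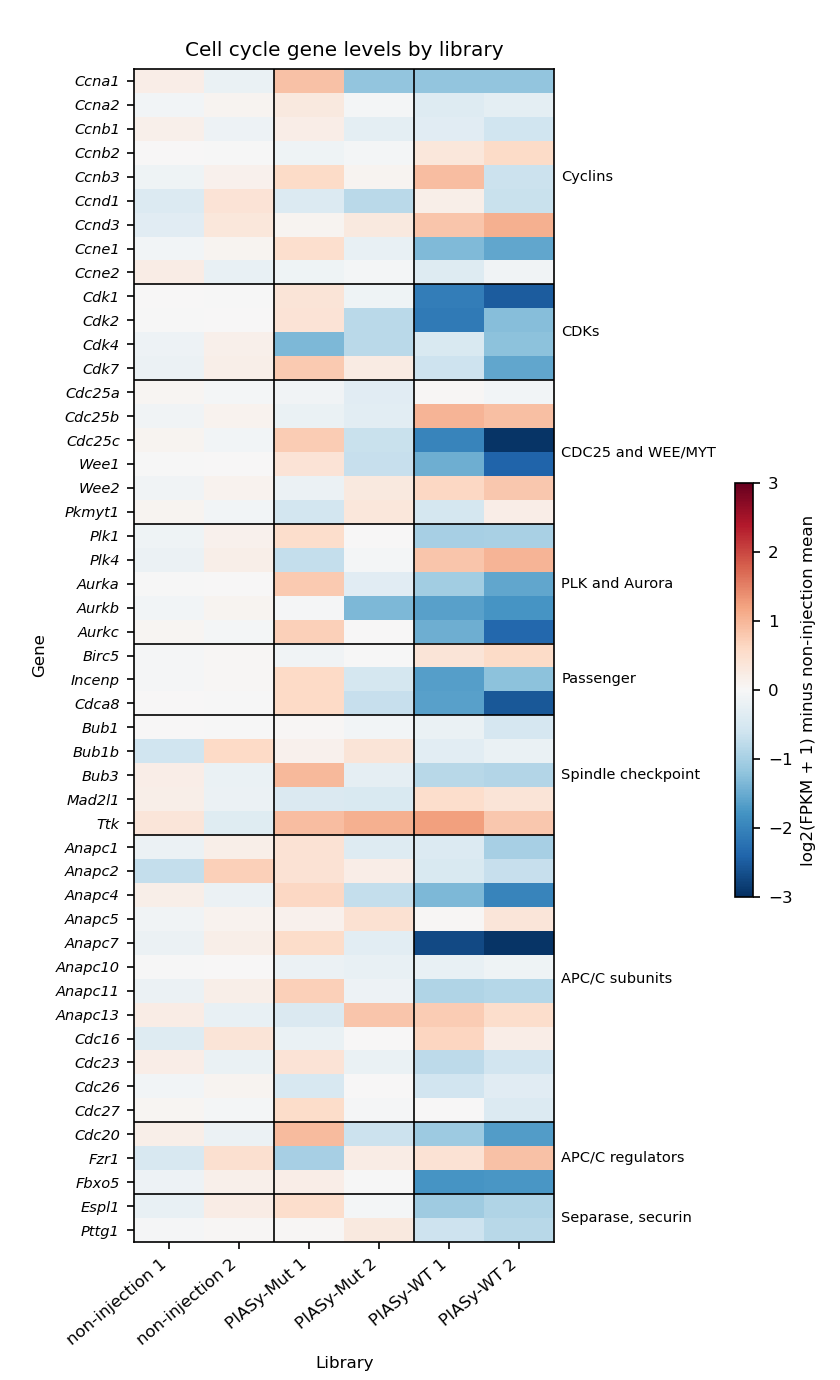
Level of each of the 49 tested cell division genes (rows, grouped by role) in the 6 libraries (columns), as log2(FPKM + 1) minus the mean of the 2 non-injection libraries, with blue for lower and red for higher. In 25 genes both PIASy-WT columns are below all 4 others, with Cdk1, Cdc25c and Anapc7 among the darkest.

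**Figure D2:**
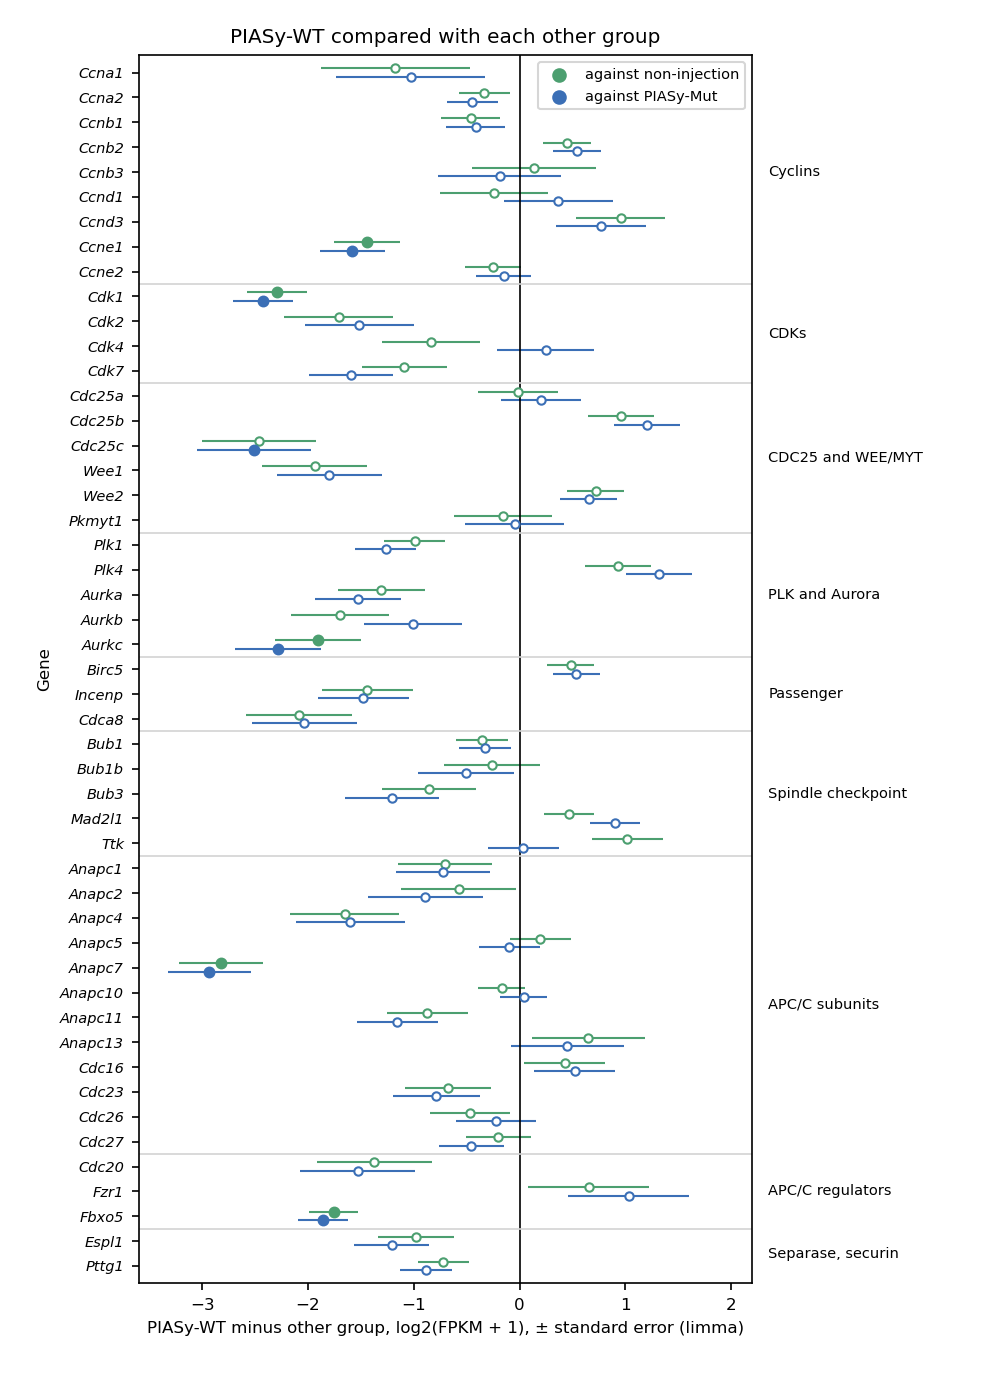
Difference of PIASy-WT from non-injection (green) and from PIASy-Mut (blue) for each of the 49 genes, in log2(FPKM + 1), with bars of 1 standard error from limma. Filled points passed the test, 5 against non-injection and 6 against PIASy-Mut, and all of them are below 0.

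Promoter sequences are shown for 3 genes that were lower in both PIASy-WT libraries than in all 4 controls, Cdk1, Fbxo5 and Cdc20, and for 2 that were higher, Plk4 and Wee2. They were chosen after the values were seen. Each window runs from 250 bases before to 50 after the start that RefSeq gives on GRCm38.p6, read 5′ to 3′ on the strand of the gene. For a gene with several windows only the first listed was used. Capitals mark the CHR letters TTTGAA (on the opposite strand TTCAAA) and the CCAAT box (on the opposite strand ATTGG), elements known from promoters of genes that peak in G2 and mitosis. The windows lie at chr10:69352863-69353162 on the minus strand (Cdk1), chr10:5805416-5805715 on the minus strand (Fbxo5), chr4:118437294-118437593 on the minus strand (Cdc20), chr3:40799701-40800000 on the plus strand (Plk4) and chr6:40442613-40442912 on the plus strand (Wee2). The measured Wee2 gene starts at 40439088, so its window lies inside that gene and not at its 5′ end.
Cdk1 promoter: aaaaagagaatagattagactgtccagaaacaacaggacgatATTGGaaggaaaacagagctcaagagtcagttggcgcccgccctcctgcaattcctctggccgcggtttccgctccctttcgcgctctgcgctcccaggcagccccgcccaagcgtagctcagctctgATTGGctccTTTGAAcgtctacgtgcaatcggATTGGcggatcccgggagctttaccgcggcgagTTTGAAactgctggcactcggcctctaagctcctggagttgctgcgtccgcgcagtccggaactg
Fbxo5 promoter: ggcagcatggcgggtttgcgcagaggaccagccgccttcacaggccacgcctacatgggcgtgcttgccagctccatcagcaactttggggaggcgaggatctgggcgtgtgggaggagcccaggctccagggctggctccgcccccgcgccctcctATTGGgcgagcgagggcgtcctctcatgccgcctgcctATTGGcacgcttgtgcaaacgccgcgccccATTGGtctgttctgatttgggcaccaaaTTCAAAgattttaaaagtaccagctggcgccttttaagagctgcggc
Cdc20 promoter: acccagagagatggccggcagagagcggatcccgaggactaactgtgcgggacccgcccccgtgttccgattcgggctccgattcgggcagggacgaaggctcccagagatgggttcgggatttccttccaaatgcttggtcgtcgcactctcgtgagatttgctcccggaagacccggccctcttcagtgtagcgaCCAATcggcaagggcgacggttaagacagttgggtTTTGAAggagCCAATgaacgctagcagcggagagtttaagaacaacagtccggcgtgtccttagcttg
Plk4 promoter: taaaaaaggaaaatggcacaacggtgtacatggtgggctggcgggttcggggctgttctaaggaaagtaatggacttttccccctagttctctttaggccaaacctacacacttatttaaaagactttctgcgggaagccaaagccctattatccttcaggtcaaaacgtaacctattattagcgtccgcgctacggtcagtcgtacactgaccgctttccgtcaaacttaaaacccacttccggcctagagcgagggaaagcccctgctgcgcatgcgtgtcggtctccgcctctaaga
Wee2 promoter: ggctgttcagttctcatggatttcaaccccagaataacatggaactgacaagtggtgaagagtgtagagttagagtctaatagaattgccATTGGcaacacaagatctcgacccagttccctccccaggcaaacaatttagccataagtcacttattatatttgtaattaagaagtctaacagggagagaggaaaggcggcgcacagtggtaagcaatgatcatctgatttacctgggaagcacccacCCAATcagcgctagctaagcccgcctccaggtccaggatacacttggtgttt

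Counted from 1 at the 5′ end of the window, the Cdk1 window holds TTTGAA at 180 and 236 and ATTGG at 43, 171 and 203. The Fbxo5 window holds TTCAAA at 254 and ATTGG at 158, 196 and 226, and the Cdc20 window holds TTTGAA at 233 and CCAAT at 198 and 243. In Wee2, ATTGG stands at 91 and CCAAT at 249 with no CHR letters, and the Plk4 window holds neither. Of the 51 genes, 41 matched a RefSeq window. The CHR letters were in 12 of them (29.3%) beside 18.1% of 27025 windows in all, the CCAAT box in 24 (58.5%) beside 37.9%, and both in 11 (26.8%) beside 7.12%. Among the 19 members with both PIASy-WT libraries below all others, 9 (47.4%) held the CHR letters, 13 (68.4%) the CCAAT box and 8 (42.1%) both. Among the 7 above all others these were 1 (14.3%), 3 (42.9%) and 1 (14.3%), and among the 14 that overlapped 2 (14.3%), 8 (57.1%) and 2 (14.3%). Over all genes tested with a window, the 3 shares were 13.6%, 42.0% and 6.63% for genes below all others, 13.7%, 38.9% and 5.2% for genes above and 13.8%, 41.3% and 6.03% for the rest, so they hardly moved with the place of PIASy-WT. These shares are a description of letters in a window, without a test. Anapc7 held the CHR letters and no CCAAT box, and Ccne1, which also fell, held neither. The 5 windows shown do not stand for all members. Ccnb2, with both PIASy-WT libraries above all others, held the CHR letters 2 times and the CCAAT box 3 times, as many as Cdk1. Ccnb1 and Pttg1, with both below, held no CHR letters.

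Among the cyclins, 1 of 9 tested was lower against each control and 0 higher. Ccne1 (chr7:38097984-38107534, minus strand, in mm10), an E-type cyclin of entry into S phase, had an FPKM of 30.6 and 26.1 in PIASy-WT, beside 74.1 and 83.4 in non-injection and 111 and 67.2 in PIASy-Mut. Both PIASy-WT libraries were below all others, and Ccne1 fell by 1.44 ± 0.31 (SE) on the log2 scale against non-injection (adjusted P=0.0491 by limma) and by 1.58 ± 0.31 against PIASy-Mut (adjusted P=0.0413), passing in 5 and 6 of 17 alternative fits. Its relative Ccne2 was at 50.9 and 62.5 in PIASy-WT and between 57.7 and 78.5 in the controls, and its groups overlapped. Ccnb1, the main mitotic partner of CDK1 and the most abundant cyclin, was at 243 and 203 in PIASy-WT, beside 338 and 277 in non-injection and 352 and 249 in PIASy-Mut. The PIASy-WT libraries were the lowest, but the higher of them lay just under PIASy-Mut 2, and Ccnb1 was not called (-0.46 ± 0.28, adjusted P=0.327, and -0.42 ± 0.28, adjusted P=0.388). Its sequence shares 23.4% of its stretches of 50 bases with other genes, mainly the pseudogene Ccnb1-ps. Ccna2, the A-type cyclin of S phase and mitotic entry, was at 146 and 157 in PIASy-WT, beside 180 and 202 in non-injection and 234 and 182 in PIASy-Mut, also not called (-0.33 ± 0.24, adjusted P=0.408, and -0.45 ± 0.24, adjusted P=0.29).

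Ccnb2, a further B-type partner of CDK1, lay higher in PIASy-WT (78.8 and 92.6) than in non-injection (63.2 and 61.2) and PIASy-Mut (57.0 and 59.9), without being called (0.45 ± 0.23 and 0.54 ± 0.23). Of the D-type cyclins, which work in G1, Ccnd3 was at 2.58 and 3.17 in PIASy-WT and between 0.585 and 1.51 in the other 4 libraries, and voom called it higher against non-injection. Ccnd1 and Ccnd2 stayed under an FPKM of 2 in every library. The germ-line cyclins were low too. Ccnb3 was between 1.71 and 7.11 with overlapping groups, and Ccna1 was listed at 0 in both PIASy-WT libraries and in PIASy-Mut 2, beside 4 and 2 fragments in the non-injection libraries and 6 in PIASy-Mut 1, too few to tell the groups apart.

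Of the CDKs, 1 of 4 tested was lower against each control and 0 higher, and the summed FPKM of the 5 genes in PIASy-WT was 0.25 of that in non-injection, beside 0.77 for the cyclins. These sums rest mostly on Cdk1 (182 of 229 and 181 of 240 in non-injection) and on Ccnb1 and Ccna2, so they do not describe each class as a whole. Cdk1 (chr10:69335146-69352938, minus strand, in mm10) was at 42.1 and 31.2 in PIASy-WT, beside 182 and 181 in non-injection and 238 and 166 in PIASy-Mut. Fragments on Cdk1 numbered 275 and 177 in PIASy-WT and between 714 and 1222 in the 4 control libraries. Cdk1 fell by 2.29 ± 0.28 against non-injection (adjusted P=0.0247 by limma) and by 2.42 ± 0.28 against PIASy-Mut (adjusted P=0.0223), and it passed in 13 of 17 alternative fits of the first comparison and 11 of 17 of the second. Cdk2, the S phase kinase, was at 1.82 and 4.06 in PIASy-WT and between 6.09 and 15.4 in the controls, and Cdk7, which activates other CDKs, at 23.8 and 11.97 and between 32.6 and 64.3. Both were below all controls and had an unadjusted P under 0.05 in each comparison, and by limma neither passed after adjustment (adjusted P=0.0963 and 0.122 for Cdk2, 0.141 and 0.0661 for Cdk7). By voom both were called lower in both comparisons (adjusted P=0.0104 and 0.0206 for Cdk2, 0.0393 and 0.00616 for Cdk7). Cdk4, a partner of D-type cyclins, was between 0.895 and 4.35 with overlapping groups, and Cdk6 stayed under an FPKM of 1.

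Of the 6 genes that switch CDK1 on and off, limma called 0 against non-injection and 1 lower against PIASy-Mut, while voom called 2 lower in each comparison, Cdc25c and Wee1, and 1 higher against PIASy-Mut, and activators and inhibitors were each split. Cdc25c, a phosphatase that activates CDK1, was at 16.7 and 8.07 in PIASy-WT, beside 72.9 and 65.1 in non-injection and 117 and 43.1 in PIASy-Mut. It fell by 2.51 ± 0.54 against PIASy-Mut (adjusted P=0.0496 by limma), and the difference from non-injection of -2.46 ± 0.54 missed the threshold (adjusted P=0.0516), and the 2 estimates lay well within 1 standard error of each other, and it passed in 6 and 4 of 17 alternative fits against non-injection and PIASy-Mut. Cdc25b, another activator of CDK1, lay the other way, at 11.5 and 10.5 in PIASy-WT and between 4.001 and 5.69 in the controls, and was not called by limma (0.96 ± 0.31 and 1.21 ± 0.31), while voom called it higher against PIASy-Mut. Cdc25a was under an FPKM of 2.1 in every library and overlapped. Wee1, the somatic kinase that inhibits CDK1, was at 4.85 and 2.04 in PIASy-WT, beside 15.01 and 15.3 in non-injection and 20.4 and 9.06 in PIASy-Mut, all PIASy-WT values below the rest (-1.94 ± 0.50, adjusted P=0.070, and -1.80 ± 0.50, adjusted P=0.082). Wee2, the oocyte form of this kinase and the most abundant of the 6, was at 388 and 446 in PIASy-WT, beside 233 and 274 in non-injection and 225 and 311 in PIASy-Mut. All its PIASy-WT values were the highest, and it was not called (0.72 ± 0.27, adjusted P=0.145, and 0.65 ± 0.27, adjusted P=0.179). Pkmyt1, the membrane-bound inhibitory kinase, was between 2.85 and 6.19 and overlapped.

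Of the 5 polo-like and Aurora kinases, 4 were below all controls in PIASy-WT and Plk4 was above them. Aurkc (chr7:6995300-7003091, plus strand, in mm10), the Aurora kinase of germ cells and early embryos, was at 10.4 and 5.14 in PIASy-WT, beside 31.8 and 29.0 in non-injection and 50.9 and 30.9 in PIASy-Mut. It fell by 1.91 ± 0.41 (adjusted P=0.0482 by limma) and by 2.28 ± 0.41 (adjusted P=0.0343), passing in 6 and 8 of 17 alternative fits, but 54.8% of its stretches of 50 bases occur in other genes, mainly Gm12463, so its level is uncertain. Aurka, which works at the spindle poles, was at 56.6 and 39.5 in PIASy-WT, beside 117 and 121 in non-injection and 204 and 93.8 in PIASy-Mut, with no overlap. It was not called by limma (-1.31 ± 0.41, adjusted P=0.104, and -1.53 ± 0.41, adjusted P=0.0764) and was called lower by voom in both comparisons (adjusted P=0.0155 and 0.00718). Plk1, which promotes mitotic entry and spindle assembly, was at 14.4 and 14.6 in PIASy-WT, beside 27.3 and 32.6 in non-injection and 43.6 and 30.3 in PIASy-Mut. Its differences of -0.99 ± 0.29 (adjusted P=0.0882) and -1.27 ± 0.29 (adjusted P=0.0544) missed the threshold of limma, and voom called it lower against PIASy-Mut. Aurkb, the kinase of the passenger complex, was at 6.91 and 6.20 in PIASy-WT, beside 22.1 and 24.9 in non-injection and 23.0 and 8.57 in PIASy-Mut, and voom called it lower against non-injection. Plk4, which starts the duplication of centrioles, was at 94.3 and 109 in PIASy-WT, beside 46.5 and 59.6 in non-injection and 31.7 and 50.5 in PIASy-Mut. It was not called by limma (0.93 ± 0.31, adjusted P=0.118, and 1.32 ± 0.31, adjusted P=0.0591), and voom called it higher against PIASy-Mut.

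The passenger proteins that bind Aurora B were split. Birc5 (survivin), the most abundant of them, was at 311 and 353 in PIASy-WT, beside 231 and 243 in non-injection and 221 and 235 in PIASy-Mut, so its PIASy-WT libraries were the highest (0.48 ± 0.22, adjusted P=0.215, and 0.54 ± 0.22, adjusted P=0.181). Cdca8 (borealin) was at 30.5 and 15.8 in PIASy-WT and between 59.4 and 146 in the controls (-2.08 ± 0.50, adjusted P=0.0609, and -2.03 ± 0.50, adjusted P=0.0638). Incenp, the scaffold of the complex, was at 5.16 and 7.30 in PIASy-WT and between 12.5 and 28.3 in the controls (-1.44 ± 0.43 and -1.47 ± 0.43). By limma 0 of the 3 passed in either comparison, 2 were lower at an unadjusted P under 0.05 in each (17.6% and 18.2% of all genes), and voom called Cdca8 and Incenp lower in both.

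The spindle checkpoint genes showed no call in either direction by limma, with 1 higher at an unadjusted P under 0.05 against non-injection and 1 lower and 1 higher against PIASy-Mut. Of all genes, 10.6% were higher against non-injection at that cut, and 18.2% lower and 9.46% higher against PIASy-Mut. Mad2l1, which encodes MAD2 and is the most abundant of the 5, was at 189 and 172 in PIASy-WT, beside 146 and 116 in non-injection and 96.8 and 95.03 in PIASy-Mut. The PIASy-WT libraries were the highest (0.47 ± 0.23, adjusted P=0.251, and 0.90 ± 0.23, adjusted P=0.0713). Bub3, a partner of BUB1 and BUBR1, was at 11.95 and 11.4 in PIASy-WT and between 18.0 and 44.1 in the controls, and voom called it lower against PIASy-Mut. Bub1, the checkpoint kinase that binds kinetochores, spanned 27.4 to 40.1 over all 6 libraries, with PIASy-WT at the low end. Bub1b, encoding BUBR1, overlapped between 4.46 and 11.4. Ttk, encoding the checkpoint kinase MPS1, was at 42.0 and 31.3 in PIASy-WT, beside 22.7 and 13.3 in non-injection and 33.7 and 37.3 in PIASy-Mut, so all 4 injected libraries lay above non-injection and overlapped each other, and voom called it higher in PIASy-WT against non-injection. The median log2 difference of the 5 genes was -0.26 and -0.32, with 3 of 5 below 0 in each comparison.

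**Figure D3:**
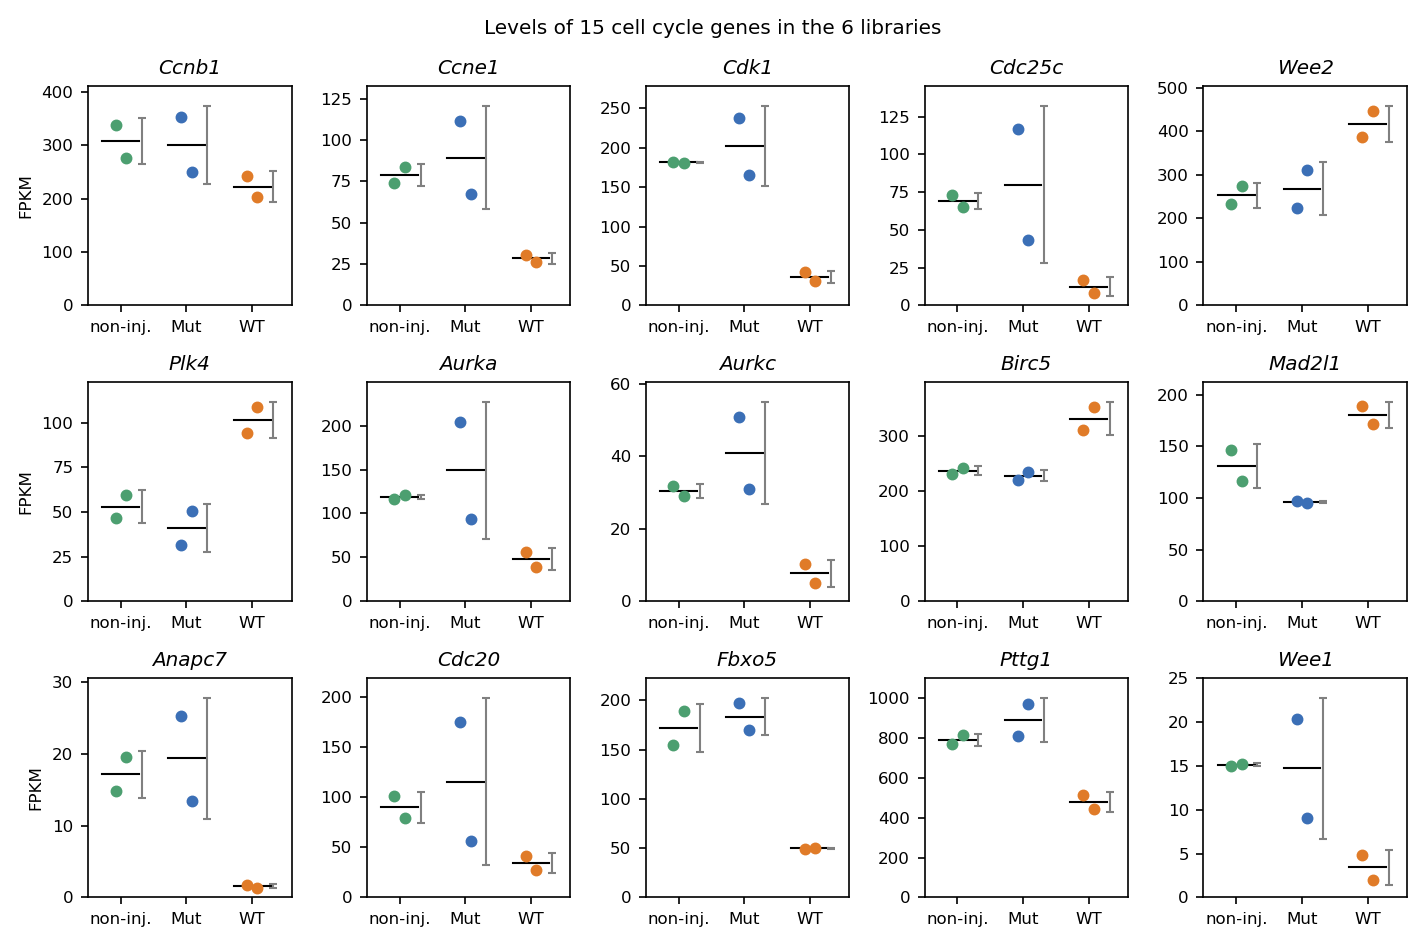
FPKM of 15 cell division genes in each library (points), with the mean of each group (line) and its SD of 2 libraries (bar), each panel with its own linear axis from 0. Cdk1, Fbxo5 and Anapc7 in PIASy-WT lie below all 4 other libraries, while Wee2, Plk4, Birc5 and Mad2l1 lie above them, and the 2 PIASy-Mut libraries are often far apart.

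The subunits of the APC/C, the ubiquitin ligase of anaphase, differed among themselves. Anapc7 (chr5:122421693-122444912, plus strand, in mm10), which encodes a subunit of the arm that binds activators, was at 1.77 and 1.36 in PIASy-WT, beside 14.9 and 19.5 in non-injection and 25.4 and 13.4 in PIASy-Mut. The PIASy-WT values rest on 12 and 8 fragments. It fell by 2.82 ± 0.39 against non-injection (adjusted P=0.0281 by limma) and by 2.93 ± 0.39 against PIASy-Mut (adjusted P=0.024), the most negative differences of all 49 genes, and passed in 12 and 11 of 17 alternative fits. The other 11 subunits had 0 calls by limma. At an unadjusted P under 0.05 by limma, 2 of the 12 (16.7%) were lower against non-injection, beside 17.6% of all genes. Against PIASy-Mut 3 (25.0%) were lower, beside 18.2% of all genes. In both comparisons 0 were higher, beside 10.6% and 9.46% of all genes. Anapc4, which encodes a platform subunit, was at 5.21 and 3.00 in PIASy-WT and between 8.49 and 23.1 in the controls, and voom called it lower in both comparisons. Anapc11, the RING subunit that recruits the ubiquitin-loaded enzyme, was at 6.12 and 6.37 and between 10.7 and 20.9 and was called lower against PIASy-Mut by voom, and Anapc1 and Cdc23 also had both PIASy-WT libraries below all others. Anapc10, the most abundant subunit, was at 42.1 and 45.3 in PIASy-WT, beside 48.8 and 49.7 in non-injection and 43.3 and 41.7 in PIASy-Mut, with overlapping groups and differences of -0.17 ± 0.22 and 0.04 ± 0.22. Cdc27, Anapc5, Anapc2, Anapc13, Cdc16 and Cdc26 overlapped too. The summed FPKM of the 12 subunits in PIASy-WT was 0.74 of that in non-injection.

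Of the 3 regulators of the APC/C, 1 was lower against each control, and their summed FPKM in PIASy-WT was 0.34 of that in non-injection. Fbxo5 (chr10:5799160-5805600, minus strand, in mm10) encodes EMI1, which keeps the APC/C off in S phase and G2, and was at 49.3 and 50.4 in PIASy-WT, beside 154 and 189 in non-injection and 197 and 170 in PIASy-Mut. It fell by 1.76 ± 0.23 against non-injection (adjusted P=0.0255 by limma) and by 1.86 ± 0.23 against PIASy-Mut (adjusted P=0.0236), passing in 12 and 11 of 17 alternative fits. Cdc20, the activator at the start of anaphase, was at 41.6 and 27.5 in PIASy-WT, beside 101 and 79.1 in non-injection and 175 and 56.5 in PIASy-Mut. The PIASy-WT libraries were the lowest, but the PIASy-Mut libraries lay far apart, and Cdc20 was not called by limma (-1.37 ± 0.54, adjusted P=0.165, and -1.53 ± 0.54, adjusted P=0.135). Voom called it lower in both comparisons (adjusted P=0.0362 and 0.0244). Fzr1, encoding CDH1, the activator of mitotic exit and G1, was between 1.08 and 6.59 and overlapped. 

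Securin and separase, which together control the cutting of cohesin, both had their lowest values in PIASy-WT. Pttg1 (securin) was the most abundant of all 51 genes, at 516 and 446 in PIASy-WT, beside 768 and 814 in non-injection and 813 and 969 in PIASy-Mut. Its differences of -0.72 ± 0.24 (adjusted P=0.122) and -0.89 ± 0.24 (adjusted P=0.081) were under 1 and it was not called. Espl1 (separase) was at 4.10 and 4.72 in PIASy-WT, beside 8.18 and 11.3 in non-injection and 14.3 and 9.17 in PIASy-Mut (-0.98 ± 0.36, adjusted P=0.14, and -1.21 ± 0.36, adjusted P=0.0935), and voom called it lower in both comparisons.

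Ratios of FPKM between partners within a library set the members against each other. The ratio of Ccnb1 to Cdk1 was 5.78 and 6.49 in PIASy-WT and between 1.48 and 1.86 in the 4 control libraries. Wee2 to Cdc25c, an inhibitor of CDK1 over an activator, was 23.2 and 55.3 in PIASy-WT and between 1.93 and 7.21 in the controls. The activator Cdc25b lay above all controls in PIASy-WT and the inhibitor Wee1 below them, so Wee1 to Cdc25b would move the other way. The pair shown thus gives no direction for inhibitors over activators as a whole. The ratio of Mad2l1 to its target Cdc20 was 4.55 and 6.25, beside 0.554 to 1.68. Plk4 to Plk1 was 6.55 and 7.42, beside 0.726 to 1.83. Pttg1 to Espl1 overlapped, at 126 and 94.4 in PIASy-WT and between 56.8 and 106 in the controls. The pairs were chosen with the members' values known and were not tested.

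**Figure D4:**
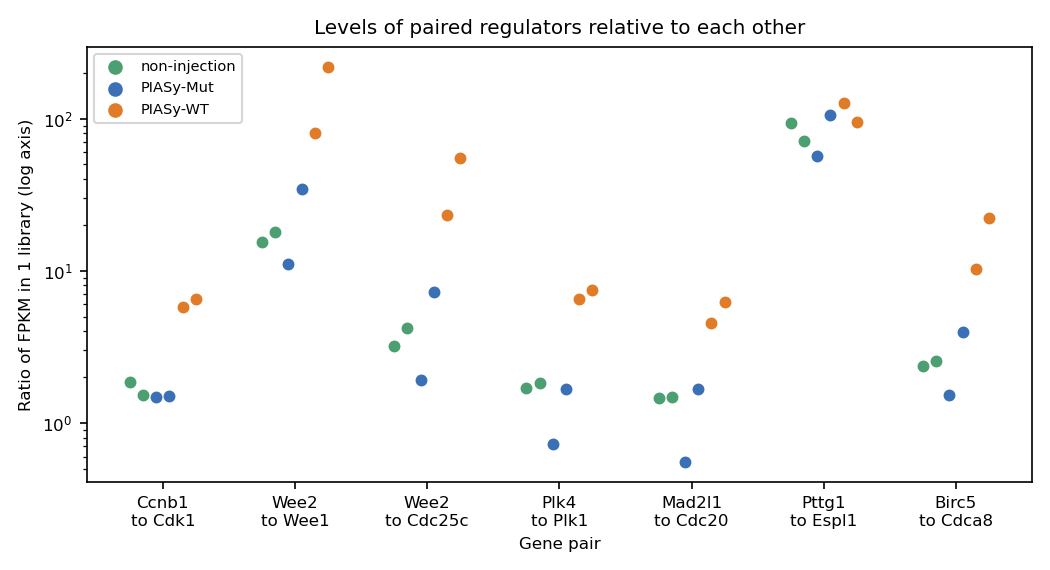
Ratio of the FPKM of paired regulators within each library (points, log axis), for non-injection (green), PIASy-Mut (blue) and PIASy-WT (orange). For 6 of the 7 pairs both PIASy-WT points lie above all 4 others, and for Pttg1 to Espl1 they overlap.

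Between PIASy-Mut and non-injection embryos no member was called. By limma 0 members were lower and 0 higher (0.0% and 0.00621% of all genes), voom called 0 (0.0% and 0.0196% of all genes). At an unadjusted P under 0.05, 0 members were lower and 1, Ttk, higher (0.99 ± 0.34, adjusted P=1 by limma), beside 2.09% and 2.37% of all genes. The median difference was 0.04, the same as over all genes tested. The 2 PIASy-Mut libraries differed most from each other, with a median absolute difference over the members of 0.54 log2 units, beside 0.27 in non-injection and 0.24 in PIASy-WT. PIASy-Mut 1 was above PIASy-Mut 2 for 33 of the 49 genes (67.3%, beside 48.0% of all genes), among them Cdc25c, Cdc20, Cdca8 and Aurka. PIASy-Mut 1 was also the library with the low mitochondrial share, and the part of that in its levels was not tested. With PIASy-Mut 1 left out, Cdk1, Ccne1, Cdc25c and Anapc7 in PIASy-Mut lay below non-injection and not above it. Fbxo5 was then level with non-injection, at 170 in PIASy-Mut 2 beside 154 and 189 in the non-injection libraries.

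The other genes of the cell cycle were read off the same fit as a list of 111. Of 103 tested by limma, 14 (13.6%) were lower and 0 higher against non-injection, 12 (11.7%) lower and 1 (0.971%) higher against PIASy-Mut, and 0 either way between the controls. Of all genes, 5.76% and 6.01% were lower and 1.03% and 0.82% higher in the PIASy-WT comparisons. The median differences of the list were -0.60 and -0.45. By limma 6 of 18 spindle genes, 5 of 19 kinetochore genes and 0 of 23 cohesin, condensin and topoisomerase genes were lower against non-injection, and 5, 5 and 1 against PIASy-Mut. Voom called 10 of 18, 11 of 19 and 7 of 24 lower against non-injection and 12, 12 and 7 against PIASy-Mut, beside 18.3% and 18.2% of all genes. Both PIASy-WT libraries lay below all controls for 16, 13 and 12 of the genes limma tested in these groups, beside 24.4% of all genes. They lay above all controls for 6 of 12 CDK inhibitor, RB and E2F genes and below for 1 (19.9% and 24.4% of all genes). The other groups were mixed, with 4 above and 3 below of 13 mitotic entry genes, 1 and 3 of 7 CDK partners and 1 and 3 of 11 genes of the ubiquitin pathway. Kif11, the motor that pushes spindle poles apart, was at 8.45 and 7.58 in PIASy-WT and between 35.5 and 79.8 in the controls (-2.30 ± 0.42, adjusted P=0.0371 by limma, and -2.59 ± 0.42, adjusted P=0.0295). Prc1, which bundles the midzone of the anaphase spindle, was at 12.7 and 11.2 and between 49.0 and 103, and Cenpa, the histone that marks centromeres, at 15.6 and 15.9 and between 60.5 and 102. Trip13 and Mad2l1bp, which together take MAD2 out of the checkpoint complex, fell by 2.36 ± 0.44 and 2.12 ± 0.31 against non-injection and by 2.30 ± 0.44 and 2.24 ± 0.31 against PIASy-Mut. Nusap1, Tacc3 and Zwilch, which act on spindle microtubules or kinetochores, fell in both comparisons as well. So did Ube2c, which loads ubiquitin for the APC/C, and Sgo2a, which protects cohesin at centromeres, but the 2 genes overlap Tnnc2 and Kctd18 on the opposite strand over 22.8% and 35.04% of their exon bases and are uncertain.

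Top2a, the topoisomerase II of dividing cells and a known substrate of PIASy, was at 7.53 and 4.25 in PIASy-WT, beside 20.99 and 18.2 in non-injection and 35.5 and 20.7 in PIASy-Mut. It fell by 2.07 ± 0.39 against PIASy-Mut (adjusted P=0.0384 by limma), and the difference from non-injection of -1.62 ± 0.39 was not called (adjusted P=0.0625). By voom Top2a was lower in both comparisons (adjusted P=0.00432 and 0.00112). Top2b stayed under an FPKM of 1 and so was left out of the limma fit, and voom did not call it (-0.52 ± 0.64, adjusted P=0.547, and 2.30 ± 1.26, adjusted P=0.185). Rbl1, the retinoblastoma relative p107, was the 1 gene of the list that limma called higher, at 23.0 and 25.4 in PIASy-WT, 7.11 and 9.19 in PIASy-Mut, and 8.44 and 10.8 in non-injection (1.47 ± 0.30, adjusted P=0.0433, against PIASy-Mut, and 1.26 ± 0.30, adjusted P=0.0587, against non-injection). Voom called 4 genes of the list higher in both comparisons, Rbl1, the E2F factors E2f4 and E2f5, and Arpp19, an inhibitor of the phosphatase PP2A. They were 3.85% of the 104 genes of the list that voom tested, fewer than the 7.36% and 5.11% of all genes that it called higher. E2f5 was at 1405 and 1226 in PIASy-WT and between 398 and 765 in the controls, and Arpp19 at 78.8 and 67.4 and between 16.4 and 37.03. These 4 genes were named after their values were seen.

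**Figure D5:**
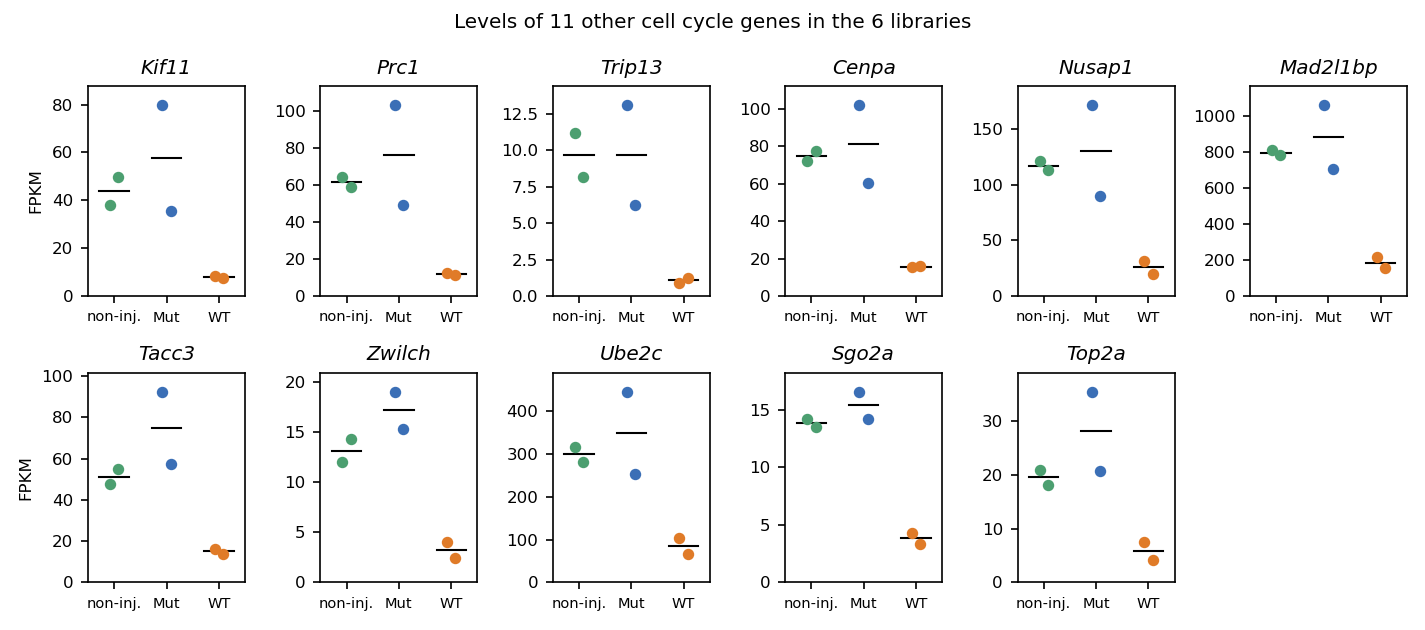
FPKM of 11 other cell cycle genes in each library (points) with the mean of each group (line), each panel with its own linear axis from 0. Both PIASy-WT libraries lie below the 4 others in all 11 panels, and PIASy-Mut 1 is the highest library in each.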

How the data were processed

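RNA-seq of 6 libraries of mouse two-cell embryos was analysed, 2 each of non-injection, PIASy-Mut and PIASy-WT, grouped by their labels. Per the methods, the authors made SMART-Seq v4 cDNA (11 PCR cycles) and Nextera XT libraries (13 cycles), trimmed reads with Trim Galore and aligned them with STAR to the mm10 genome, and featureCounts gave the uniquely mapped fragments per gene. FPKM of 53023 genes were deposited in 1 table, with gene positions and lengths. The annotation release and the use of strand are not given in the sources used here. Spike-in RNA was added at lysis, but the table holds 0 spike-in entries, so total RNA per embryo was not compared.

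FPKM multiplied by gene length came out as whole fragments for 100% of values (tolerance 0.01 fragment), which gave the depth. The tests were those of limma 3.58.1 (lmFit, eBayes with a trend, R 4.3.3) on log2(FPKM + 1), over all 6 libraries and the 16100 genes that reached an FPKM of 1 in 2 libraries or more. P-values were adjusted by Benjamini-Hochberg over all of them, and calls needed an adjusted P of 0.05 or less and a log2 difference of 1 or more in size. Differences and their SE are on this scale, which understates changes of low genes. The study used another tool on its counts, and a count model was not fitted to FPKM here. An exact permutation test of 2 against 2 libraries cannot go below 0.333. The scripts were tested on simulated data.

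The members and lists were chosen with earlier results of these data known. Values in every library are given for members called in at least 1 comparison, for the member of each role with the highest mean FPKM, and for Ccnb1, Ccna2, Cdk1, Wee1, Plk1, Aurka, Mad2l1, Cdc20, Fbxo5, Pttg1 and Espl1, and of the other cell cycle genes for up to 10 that passed in both PIASy-WT comparisons and for Top2a and Top2b. Other genes with values were named after these were seen. A gene of the opposite strand overlaps over 10% of the exon bases of Ccna1, Ccna2, Ccnd1, Ccne2, Cdk4, Pkmyt1, Anapc13, Cdc23 and Prc1, and Cdc25c, Plk1 and Cdc20 share over 10% of their stretches of 50 bases with other genes, so their levels are uncertain. Promoter windows came from RefSeq. Alternatives tried were other pseudocounts (0.1 and 5), other filters, quantile normalization, TPM, eBayes without a trend or robust, a fit of only 4 libraries, a replicate block, leaving out each library, and limma-voom on the recovered fragments of 10193 genes with at least 10 in at least 2 libraries.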

Additional observations from a re-analysis of the deposited data

How the results depend on the processing

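The differences of Cdk1, Fbxo5, Anapc7, Ccne1, Aurkc and Cdc25c in PIASy-WT kept their sign under every alternative run, while the number of calls moved. The share of all genes called lower, given in brackets, moved as well. Against non-injection, where 5 members were lower (5.76%), 3 were lower with a pseudocount of 0.1 (4.8%) and of 5 (4.29%), with quantile normalization (4.34%), TPM (3.59%) and robust eBayes (5.51%), 2 with no filter (0.553%) and without a trend (1.59%), 9 of 39 with an FPKM of at least 5 (17.3%), 12 with only the 4 libraries compared (9.43%) and 16 with voom (18.3%), and between 0 and 12 when 1 library was left out. Against PIASy-Mut, where 6 were lower (6.01%), 3 were lower with no filter (0.873%), with quantile normalization (3.04%) and without a trend (2.88%), 11 with an FPKM of at least 5 (17.8%), 0 with only the 4 libraries compared (0.0%) and 18 with voom (18.2%), and between 0 and 17 when 1 library was left out. Voom called 2 members higher in each comparison, and an FPKM of at least 5 called 2 higher against PIASy-Mut, where leaving out 1 library gave between 0 and 1. Leaving out a library left 2 residual degrees of freedom, and a lone library was assumed to vary like the other groups. Over all 49 members, the difference changed sign under at least 1 alternative for 9 genes against non-injection, 11 against PIASy-Mut and 32 between the controls, and none of these differences was called by limma.

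For the genes that the rule on named genes selected, the PIASy-WT comparisons were followed one by one, and for the 6 called members also the comparison of the controls. Of these single values, 802 kept direction and side of the threshold, 242 lost a call, 33 gained one and 11 changed sign. In PIASy-Mut against non-injection, leaving out 1 library gave a range of -0.22 to 0.50 for Ccne1, -0.13 to 0.39 for Cdk1, -0.66 to 0.75 for Cdc25c, -0.32 to 0.55 for Anapc7 and -0.049 to 0.24 for Fbxo5, with the lowest value without PIASy-Mut 1, or for Fbxo5 without non-injection 1, and quantile normalization gave -0.035 for Cdc25c. With quantile normalization Anapc10 in PIASy-WT was at 0.12 against non-injection and at 0.41 against PIASy-Mut, and in the second comparison it ranged from -0.013 to 0.091 when 1 library was left out, with the lowest value without PIASy-WT 2. Quantile normalization moved the median of all genes to 0.12 and 0.11 in the PIASy-WT comparisons. The libraries of a group share a replicate number with those of another, without a label that pairs them, and deviations of same-numbered libraries correlated at 0.085, 0.064 and 0.0037. With the replicate block, 6 members were lower in each PIASy-WT comparison and 0 between the controls, beside 719 and 799 lower of all genes.

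With 2 libraries a group, a call missed here does not show that a gene did not differ. Levels of genes with few fragments, such as Ccna1, Ccnd1, Ccnd2, Cdk4, Cdk6 and Anapc13, limit what can be said of them.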
